A study of Mus musculus with 16 samples.

Results

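The NF-kB pathway is described here through 35 genes in liver neutrophils that carried or lacked the interferon gamma (IFN-gamma) receptor chain Ifngr1. The 35 were chosen by symbol as the pathway's subunits, inhibitors, kinases and target genes, out of 54532 gene identifiers in the deposited table. All 35 had 10 or more counts in at least 8 of the 16 libraries, the level required for analysis, and they are 35 of the 10063 genes that were tested. Libraries came from 8 mice of the C57BL/6 strain, numbered 2 to 9, each a wild-type host that had received about 1000 cGy of irradiation and then a mixture of 50% CD45.1 wild-type marrow and 50% CD45.2 marrow deficient for Ifngr1. After 8 weeks the mice were given MC38 tumours, a colon carcinoma line, in the flank, and 1 week later an agonist antibody against CD40. Neutrophils were sorted from the liver 2 days after the antibody, 1 wild-type (WT) and 1 Ifngr1-deficient (Ifngr1_KO) library per mouse. All libraries therefore share the tumour, the antibody and the irradiated host, and no untreated group was part of the comparison. The donor of the marrow, the CD45 allele and the gate used in sorting differ between the genotypes in all mice, and their effects cannot be told apart from the loss of the receptor. In bulk RNA from a sorted gate, fewer cells of a type and less RNA per cell cannot be told apart.

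NF-kB is a family of dimeric transcription factors built from the subunits that Nfkb1, Nfkb2, Rel, Rela and Relb encode. In resting cells the dimers are held in the cytoplasm by inhibitor proteins of the I-kB family. Signals from Toll-like receptors, the TNF receptor or CD40 activate I-kB kinases, the inhibitor is phosphorylated and degraded, and the dimers enter the nucleus and bind kappa-B sites. Several of the genes they switch on encode inhibitors of the same pathway, so the response limits itself, and others protect the cell from death or place adhesion molecules on its surface. Genes that respond to IFN-gamma often carry a different DNA motif, the gamma-activated site (GAS). Many inflammatory genes of neutrophils and macrophages have both kinds of site in their control regions.

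The promoters of the best known inhibitor and of 4 of the 5 members that differed between the genotypes are shown first. A link between the letters before the start and the differences between genotypes was not tested. Each sequence holds the 250 bases before the transcription start in RefSeq (build GRCm38.p6), 5' to 3' on the strand of the gene, in lower case, with matches to a kappa-B consensus or a GAS core in capitals. The windows lie at chr12:55492648-55492897 on the minus strand for Nfkbia, and on the plus strand at chr17:45555450-45555699 for Nfkbie, chr17:13007589-13007838 for Sod2, chr17:35821463-35821712 for Ier3 and chr9:21015690-21015939 for Icam1.
Nfkbia: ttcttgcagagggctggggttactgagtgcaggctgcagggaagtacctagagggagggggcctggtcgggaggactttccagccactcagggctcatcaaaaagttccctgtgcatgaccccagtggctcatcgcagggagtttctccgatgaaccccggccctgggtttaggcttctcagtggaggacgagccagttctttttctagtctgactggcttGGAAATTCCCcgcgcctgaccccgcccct
Nfkbie: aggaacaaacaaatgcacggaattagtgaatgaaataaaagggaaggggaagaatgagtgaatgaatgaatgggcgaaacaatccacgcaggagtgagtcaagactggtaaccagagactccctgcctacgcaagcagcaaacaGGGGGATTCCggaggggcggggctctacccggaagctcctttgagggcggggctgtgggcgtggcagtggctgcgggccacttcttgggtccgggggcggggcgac
Ier3: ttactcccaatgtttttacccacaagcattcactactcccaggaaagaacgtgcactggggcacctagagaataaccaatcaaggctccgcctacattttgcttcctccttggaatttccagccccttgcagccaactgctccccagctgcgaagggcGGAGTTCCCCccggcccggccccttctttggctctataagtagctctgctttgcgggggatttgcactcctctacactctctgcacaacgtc
Sod2: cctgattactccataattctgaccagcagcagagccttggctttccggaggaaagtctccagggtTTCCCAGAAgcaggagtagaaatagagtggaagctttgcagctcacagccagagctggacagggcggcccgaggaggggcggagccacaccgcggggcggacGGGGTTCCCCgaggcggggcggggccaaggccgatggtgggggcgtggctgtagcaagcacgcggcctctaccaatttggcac
Icam1: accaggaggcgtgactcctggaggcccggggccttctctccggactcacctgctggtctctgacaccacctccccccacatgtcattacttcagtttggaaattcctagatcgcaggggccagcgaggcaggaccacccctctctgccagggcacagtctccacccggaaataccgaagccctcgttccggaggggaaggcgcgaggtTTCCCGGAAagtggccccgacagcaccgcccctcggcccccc
Nfkbia held the kappa-B match GGAAATTCCC from 29 to 20 bases before the start, Nfkbie held GGGGGATTCC from 106 to 97, and Ier3 held GGAGTTCCCC from 92 to 83. Sod2 held the kappa-B match GGGGTTCCCC from 83 to 74 bases before the start and the GAS core TTCCCAGAA from 185 to 177. Icam1 held the GAS core TTCCCGGAA from 42 to 34 bases before the start. The kappa-B consensus searched for was GGGRNWYYCC (R is A or G, N any base, W is A or T, Y is C or T). The Icam1 window had no match to it, but its stretch tggaaattcc departs from it only at the first letter. Sites outside this consensus were not marked, so Icam1 is not shown to lack a kappa-B site. The promoter of Nfkbib had no match to either motif, and it overlaps an annotated exon of its neighbour Sirt2 over 133 bases, so its letters are not printed.

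RefSeq promoters were found for 26 of the 35 members, 36 promoters in all. On either strand, the kappa-B consensus was present in 12 of the 36 promoters (33.3%), those of 10 members, against 3.90% of 32851 promoters of the same length. The GAS core, TTCNNNGAA, was in 7 of 36 (19.4%, 6 members) against 7.02% of all promoters. The core of the interferon-stimulated response element was in 0 of 36 against 2.98% of all promoters. Nfkb2, Sod2 and Tnip1 each had a promoter that held both a kappa-B match and a GAS core, and Nfkbid had them in different promoters. These matches describe letters and not binding, and matches of 1 motif can overlap each other.

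Each library held 12.5 to 21.7 M estimated counts, and the total was lower in Ifngr1_KO in 7 of 8 pairs (exact sign-flip test, adjusted p = 0.0469 over 12 library measures). Values are given as CPM, counts set to a common library total with TMM scaling between libraries. Ifngr1 itself stood at 305 ± 45.5 CPM in WT libraries and at 84.1 ± 30.04 CPM in the others (SD, n = 8). Its highest Ifngr1_KO library (119 CPM) lay below its lowest WT library (228 CPM). All 11 neutrophil markers were present, with summed levels of 33273 to 57871 CPM in WT and 28553 to 84604 CPM in Ifngr1_KO, while the 9 Kupffer cell markers summed to 52.7 to 151 CPM and 39.3 to 83.7 CPM. Clec4f, a defining Kupffer cell marker, was at 0 in every Ifngr1_KO library, but 5 of the 9 markers had 10 or more counts in at least 8 libraries. The WT level of Clec4f is not given here, so its zero is not read as a difference between the genotypes or as a measure of purity. For monocyte markers the sums were 2515 to 3474 CPM in WT libraries, against 1679 to 2856 CPM without the receptor. Ccr2, the defining marker of that list, averaged 0.84 ± 0.83 CPM in WT libraries and 1.38 ± 1.46 CPM in the others (SD, n = 8). It is 1 of the 7 genes listed, and its level was a very small part of the sum. Ccr2 therefore does not tell how much monocyte RNA was present or how the list differed. B cell markers summed to 152 to 275 CPM and 58.4 to 82.3 CPM. The summed levels of the Kupffer cell, monocyte and B cell lists were lower in the Ifngr1_KO library of all 8 pairs (two-sided exact sign-flip tests, adjusted p = 0.03125 over 12 library measures for each). As single genes, edgeR called lower 1 of the 5 Kupffer cell markers tested, 1 of 7 monocyte and 1 of 5 B cell markers. It also called 2 of the 11 neutrophil markers lower. A marker that was not called is not shown to be unchanged, so these counts do not tell how much of each list fell. The part of these lists in the member differences was not tested. The mitochondrial share of counts was 0.595 ± 0.272% in WT and 1.39 ± 0.656% in Ifngr1_KO (SD, n = 8), with the Ifngr1_KO library above its partner in 6 pairs (adjusted p = 0.075, exact sign-flip test). The Ifngr1_KO library of mouse 7, with a mitochondrial share of 2.503%, stood apart from the other 7 Ifngr1_KO libraries for many members, and values without it are given where it decides a result.

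The comparison asks whether NF-kB genes of neutrophils in the same liver differ with the neutrophil's own IFN-gamma receptor. Most of the 35 members did not pass the test. At an adjusted p under 0.05 (edgeR quasi-likelihood test with mouse as a block, adjusted over all 10063 genes), 4 members fell in Ifngr1_KO: the inhibitors Nfkbib and Nfkbie, the mitochondrial superoxide dismutase Sod2 and the adhesion molecule Icam1. Of all genes tested, 226 were called lower, which is 2.25%, against 11.4% of the members. Ier3, an early response gene linked to cell survival, was the 1 member that rose, and 48 genes (0.477%) were called higher in all. The members are more abundant than most genes tested, with a median WT level of 205 CPM against 7.95 CPM, so the 2 shares are not matched for level. Restricted to the 4648 genes with a mean CPM of at least 10, 5.25% were called lower, and 5 of the 32 members tested there (15.6%), the added member being the kinase gene Ikbke.

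Direction was also counted over mice. In 7 members the Ifngr1_KO library was the lower of the pair in 8 of 8 mice (Nfkbib, Nfkbie, Ikbke, Irak2, Tnip1, Sod2 and Icam1), against 483 of all genes (4.8%). Ier3 alone was higher in 8 of 8 mice, as were 298 of all genes (2.96%). No member had Ifngr1_KO libraries that all lay below the lowest WT library, a pattern shown by 147 genes (1.46%). The median log2 fold change of Ifngr1_KO over WT was -0.13 over the 35 members and 0.05 over all genes tested. Of the 35, 25 were below 0 (71.4%), against 46.4% of all genes tested.

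**Figure D1:**
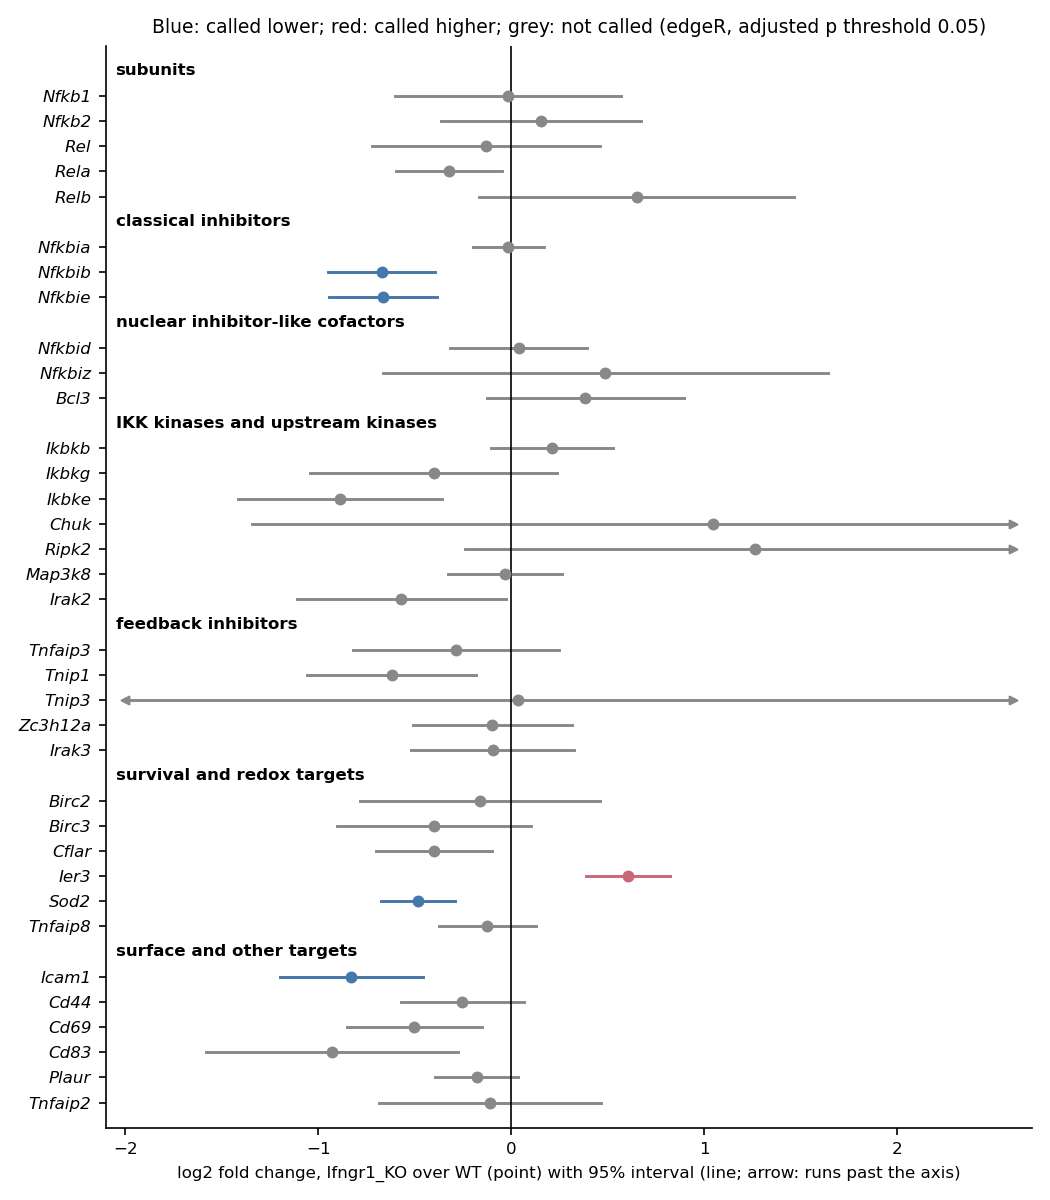
Log2 fold change of Ifngr1_KO over WT (horizontal axis) for each of the 35 members, grouped by role; points are edgeR estimates and lines their 95% intervals from 8 mice, with arrows where a line runs past the axis. The 4 members called lower (blue) lie between -0.83 and -0.48, Ier3 (red) lies at 0.61, and the other 30 are grey.

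None of the 5 subunit genes passed the test. Per kilobase of the longest annotated transcript, the most abundant in WT was Nfkb2, which encodes the p100 precursor of the p52 subunit, at 86.1 CPM per kilobase. Rela, the main activating subunit, followed at 74.3 CPM per kilobase. Relb, the partner of p52 in the alternative pathway, stood at 35.3, and Nfkb1 and Rel at 6.15 and 5.70 CPM per kilobase. Rela had a level of 153 to 231 CPM in WT (median 208) and 114 to 216 CPM in Ifngr1_KO (median 161). The Rela groups overlapped, and 7 of 8 Ifngr1_KO libraries lay below the WT median. Its means were 202 ± 26.7 and 163 ± 32.7 CPM (SD, n = 8), and the log2 fold change was -0.32 (SE 0.12, edgeR adjusted p = 0.227).

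Nfkb2 and Relb are the pair of the alternative pathway, and Nfkb2 differed far more between mice than between genotypes. Nfkb2 had a level of 49.2 to 574 CPM in WT (median 403) and 77.2 to 534 CPM in Ifngr1_KO (median 441). Both libraries of mice 5 and 9 were the lowest 4 of the 16, at 90.8 and 104 CPM in mouse 5 and 49.2 and 77.2 CPM in mouse 9. The log2 fold change of Nfkb2 was 0.16 (SE 0.23, edgeR adjusted p = 0.784), with a 95% interval of -0.36 to 0.67. Relb spanned 22.4 to 270 CPM in WT and 29.0 to 485 CPM in Ifngr1_KO, with a log2 fold change of 0.65 (SE 0.37, edgeR adjusted p = 0.415). Within a mouse the log2 difference of Relb ran from -0.63 to 2.86, so its spread did not lie only between mice. For Nfkb1, the p105 precursor of p50, and Rel, a subunit prominent in lymphocytes and myeloid cells, the fold changes were -0.02 (95% interval -0.60 to 0.57) and -0.13 (-0.72 to 0.46). The sign for Nfkb1 turned with the scaling, to 0.10 by library totals, while that for Rel did not.

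The 3 classical inhibitors divided in an uneven way. Nfkbia, which encodes I-kB alpha, the fastest feedback inhibitor and the most abundant member per kilobase (2289 CPM per kilobase in WT), did not pass the test. Its level was 2689 to 4826 CPM in WT (median 3633) and 2786 to 4464 CPM in Ifngr1_KO (median 3420). The groups covered nearly the same range. The log2 fold change of Nfkbia was -0.01 (SE 0.08, edgeR adjusted p = 0.955), with a 95% interval of -0.20 to 0.17 and the smallest SE of the 35 members, and its sign turned under scaling by library totals (0.10).

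Nfkbib encodes I-kB beta, an inhibitor that is resynthesised more slowly and can also bind NF-kB on DNA. Its level was 152 to 258 CPM in WT (median 189) and 102 to 168 CPM in Ifngr1_KO (median 129). In 7 of 8 Ifngr1_KO libraries it lay below the lowest WT library, and the exception was mouse 5, whose pair stood at 175 and 168 CPM. The mean fell from 205 ± 44.3 to 128 ± 22.01 CPM (SD, n = 8), and the log2 fold change was -0.67 (SE 0.13, edgeR adjusted p = 0.0174). Nfkbib lies at chr7:28758251-28767512 on the minus strand (mm10) and shares 42 exon bases with Sirt2 on the opposite strand, and in these unstranded libraries reads from those bases cannot be assigned to either gene.

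Nfkbie encodes I-kB epsilon, an inhibitor of dimers that contain Rela or Rel, and its gene is itself induced by NF-kB. It lies at chr17:45555703-45563169 on the plus strand. The level of Nfkbie was 265 to 698 CPM in WT (median 434) and 124 to 377 CPM in Ifngr1_KO (median 303). Groups overlapped, with 3 of 8 Ifngr1_KO libraries below the lowest WT library, yet within each mouse the Ifngr1_KO library was the lower. The mean fell from 434 ± 132 to 278 ± 86.5 CPM (SD, n = 8), and the log2 fold change was -0.66 (SE 0.13, edgeR adjusted p = 0.0185). Without the mouse block the call of Nfkbie was lost (adjusted p = 0.157).

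The unequal behaviour of the inhibitors was also measured inside each library, as the log2 ratio of 2 counts, which does not depend on scaling between libraries. The ratio of Nfkbie to Nfkbia was -3.08 ± 0.25 in WT and -3.73 ± 0.45 in Ifngr1_KO, a difference of -0.65 ± 0.45 (SD, n = 8), and all 8 pairs went down (adjusted p = 0.03125 over 8 ratios, from an exact sign-flip test whose p of 0.0078125 is the lowest that 8 pairs allow). That of Nfkbib to Nfkbia differed by -0.66 ± 0.31, down in 7 pairs (adjusted p = 0.0417 in the same exact test). For Nfkbie against Nfkbib the difference was 0.01 with a 95% interval of -0.41 to 0.42 (exact adjusted p = 0.984), so a change of up to about that size in either direction was not excluded. Both inhibitors were thus lower relative to Nfkbia, by amounts not told apart here. Among the subunits, Rela to Relb differed by -1.005 ± 1.18 (exact p = 0.0625, adjusted p = 0.125), and Rela to Rel and Nfkb1 to Nfkb2 gave adjusted p = 0.708 and 0.848 in the same exact test. Ikbkb to Chuk, the catalytic pair of the kinase complex, gave 0.708.

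**Figure D2:**
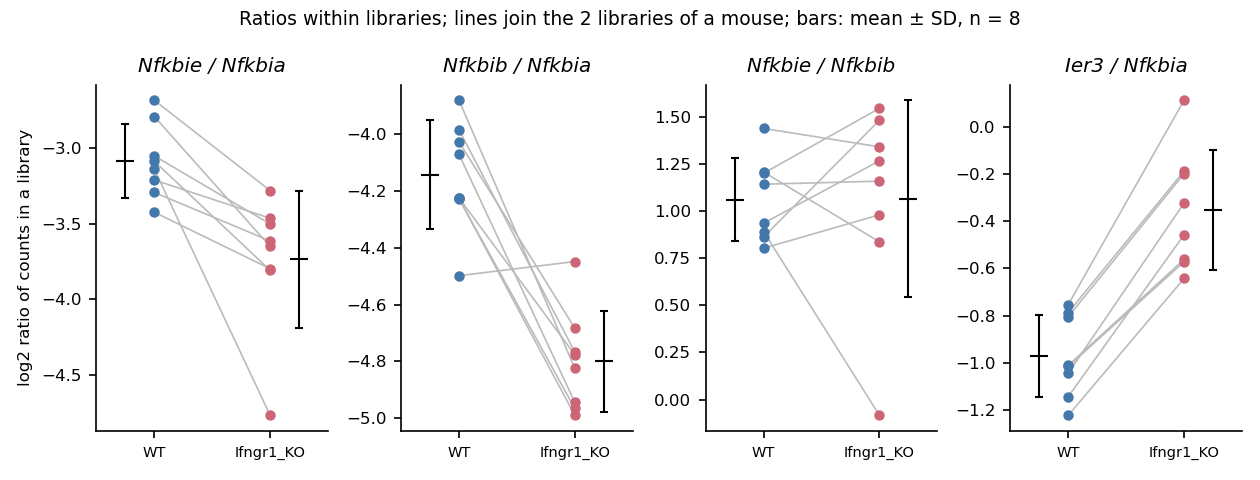
Log2 ratio of 2 counts within a library (vertical axes, which do not start at 0) in WT and Ifngr1_KO; points are libraries, lines join the 2 of a mouse, and bars give mean ± SD, n = 8. Nfkbie to Nfkbia and Ier3 to Nfkbia moved in 8 of 8 mice, downward and upward, and Nfkbie to Nfkbib moved in both directions.

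The 3 nuclear proteins of the I-kB family act as cofactors of NF-kB rather than as cytoplasmic inhibitors, and none of their genes passed the test. Nfkbid, which encodes I-kB NS, was the most abundant of them per kilobase, at 404 to 1358 CPM in WT (median 1021) and 585 to 1251 CPM in Ifngr1_KO (median 1011). The groups overlapped over most of their range. The log2 fold change of Nfkbid was 0.04 (SE 0.16, edgeR adjusted p = 0.927; 95% interval -0.31 to 0.39). Nfkbiz, the gene of I-kB zeta, an activator of secondary response genes, spanned 25.3 to 987 CPM in WT and 31.1 to 1244 CPM in Ifngr1_KO, a 39.1-fold range within WT alone. Its fold change of 0.49 on the log2 scale had a 95% interval of -0.67 to 1.64. Bcl3, a partner of p50 and p52 dimers, had a fold change of 0.39 (adjusted p = 0.438), with 134 CPM in the Ifngr1_KO library of mouse 7 against a WT range of 25.02 to 52.9 CPM.

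**Figure D3:**
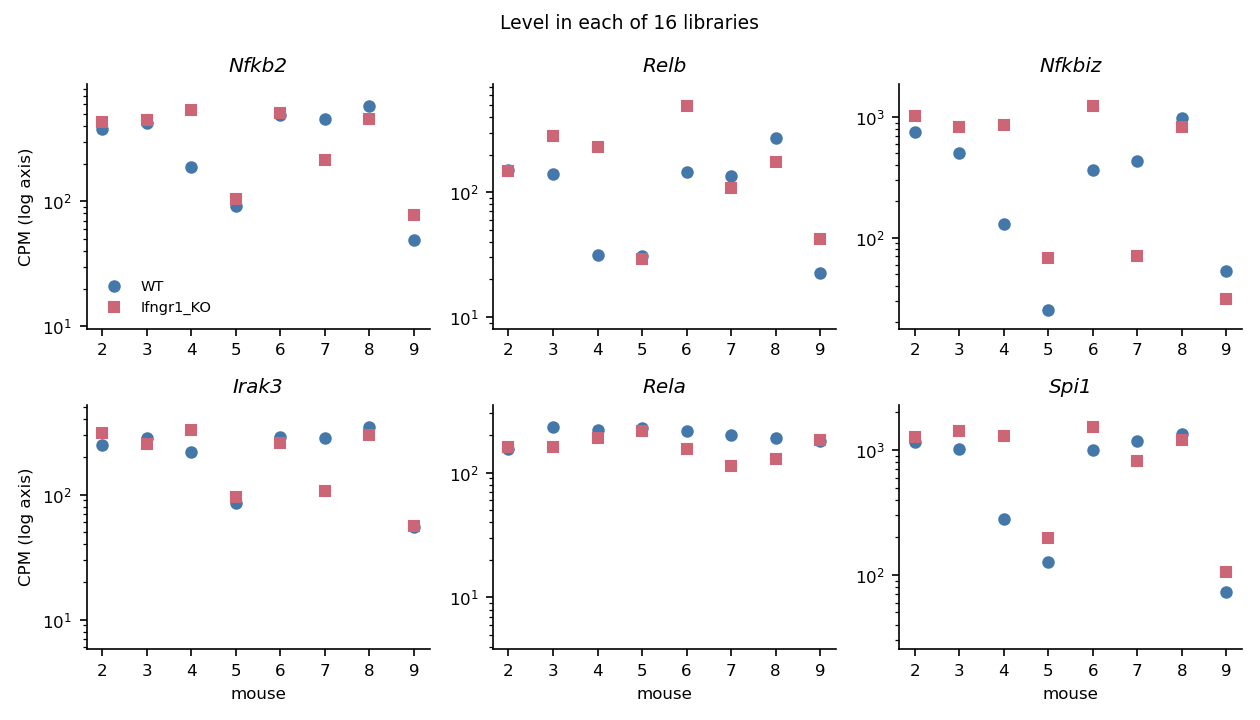
Level in CPM (vertical axes, log scale) by mouse (horizontal axis) for Nfkb2, Relb, Nfkbiz, Irak3, Rela and the transcription factor gene Spi1; circles are WT and squares Ifngr1_KO libraries, 1 each per mouse. Both libraries of mice 5 and 9 are the 4 lowest for Nfkb2, Nfkbiz and Irak3, and Rela stays between 114 and 231 CPM in all 16 libraries.

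The low level in mice 5 and 9 was shared by several members. Both libraries of these mice were the 4 lowest of 16 for Nfkb2, Nfkbiz and Irak3, 3 of the 35 members, and for 263 of all genes tested (2.61%), of which 4 were called between genotypes. Relb was 22.4 to 42.0 CPM in those 4 libraries, and the WT library of mouse 4 was as low, at 31.5 CPM, against 229 CPM in the Ifngr1_KO library of the same mouse. Rela did not share this pattern. Spi1, which encodes the myeloid factor PU.1 and was picked after its values were seen, stood at 128 and 196 CPM in mouse 5 and 73.4 and 105 CPM in mouse 9, against 283 to 1526 CPM in the other 12 libraries. The labels give no batch or date for these mice. With mice 5 and 9 left out, no member was called in either direction, at 6 mice in place of 8. The fold changes of the 5 called members kept their sign. Leaving out mice could not change it, since each had the same direction in 8 of 8 mice.

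Of the 7 kinases and upstream signalling genes, none passed the test. Ikbke encodes IKK epsilon, a kinase related to TBK1 that is itself an inducible gene, and it was the most abundant of the 7 per kilobase. It lies at chr1:131254343-131279606 on the minus strand. Ikbke had a level of 882 to 1668 CPM in WT (median 1289) and 160.4 to 1095 CPM in Ifngr1_KO (median 805). In 7 of 8 Ifngr1_KO libraries it lay below the lowest WT library, and within each mouse the Ifngr1_KO library was the lower. The means were 1291 ± 254 and 751 ± 270 CPM (SD, n = 8), and the log2 fold change was -0.89 (SE 0.24, edgeR adjusted p = 0.0868). Without mouse 7, whose Ifngr1_KO library was at 160.4 CPM, the difference was smaller but passed the test (-0.66, adjusted p = 0.00416), as it did with DESeq2 (adjusted p = 0.00497) and with limma-voom using library quality weights (0.00572). It did not pass with library totals (0.138) or without the mouse block (0.132), and its fold change was -0.29 once the mitochondrial share entered the model (adjusted p = 0.88). Ikbke is 6.783 Mb from Ptprc, the gene of the CD45 alleles by which the marrows differed, so a difference carried by linked donor sequence cannot be told apart from one due to the receptor.

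The other 6 genes of this group gave weaker or less certain differences. Irak2, a kinase-like adaptor of Toll-like receptor and interleukin 1 signalling, was lower in 8 of 8 mice (426 ± 68.4 and 314 ± 118 CPM, SD, n = 8; log2 fold change -0.57, edgeR adjusted p = 0.284) and passed without mouse 7 (-0.33, adjusted p = 0.0442). Ikbkb, the main catalytic kinase of the classical pathway, had a fold change of 0.21 (95% interval -0.10 to 0.53). Map3k8, which encodes the TPL2 kinase, had one of -0.03 (-0.33 to 0.27), with a sign that turned to 0.08 under library totals. Ikbkg encodes the regulatory subunit NEMO. It shares 418 exon bases on the opposite strand with G6pdx, which held 187617 counts in all against 17896 for Ikbkg, so its values (fold change -0.40, adjusted p = 0.532, and -0.14 without mouse 7) are uncertain. Chuk (IKK alpha) and Ripk2 (a kinase of the NOD receptors) were scarce, at 1.51 and 0.78 CPM per kilobase in WT, and their 95% intervals were wide, -1.34 to 3.43 and -0.24 to 2.76. Chuk had a count of 0 in the WT library of mouse 5 and 2 in the Ifngr1_KO library of mouse 7.

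**Figure D4:**
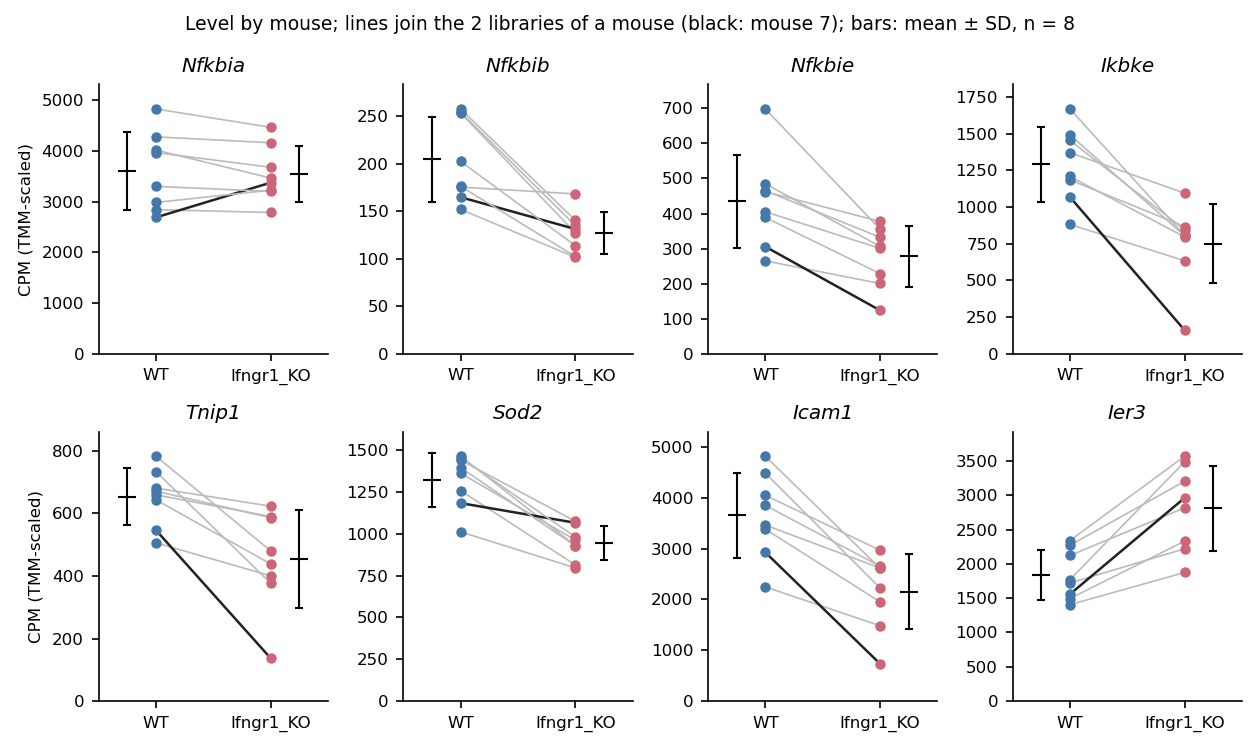
Level in CPM (vertical axes, from 0) of 8 members in WT (blue) and Ifngr1_KO (red); points are libraries, lines join the 2 of a mouse with mouse 7 in black, and bars give mean ± SD, n = 8. Nfkbia covers nearly the same range in both groups, Nfkbib, Nfkbie, Ikbke, Tnip1, Sod2 and Icam1 are lower in Ifngr1_KO in 8 of 8 mice, and Ier3 is higher in 8 of 8.

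Feedback inhibitors other than the I-kB proteins did not pass the test either. Tnip1 encodes ABIN1, a ubiquitin-binding partner of A20, and was the most abundant of the 5 per kilobase. Its level was 506 to 783 CPM in WT (median 665) and 137 to 623 CPM in Ifngr1_KO (median 459). In 5 of 8 Ifngr1_KO libraries it lay below the lowest WT library. The means of Tnip1 were 653 ± 90.8 and 454 ± 158 CPM (SD, n = 8), and the log2 fold change was -0.62 (SE 0.20, edgeR adjusted p = 0.149). DESeq2 and limma-voom with quality weights called it lower (adjusted p = 0.0341 and 0.0425).

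Tnfaip3, the gene of the ubiquitin-editing enzyme A20, lies on chromosome 10, 0.576 Mb from Ifngr1, inside the stretch in which a knockout allele can carry linked donor sequence. Its level was 153 to 593 CPM in WT (median 336) and 106 to 634 CPM in Ifngr1_KO (median 309). The groups overlapped almost fully, and the fold change was -0.29 (95% interval -0.82 to 0.25, edgeR adjusted p = 0.591). Irak3, an inhibitory kinase-like protein of the Toll-like receptor pathway, and Zc3h12a, which encodes the mRNA-degrading enzyme regnase-1, each had a fold change of -0.10, with 95% intervals of -0.52 to 0.33 and -0.51 to 0.31. Both signs turned under library totals (to 0.02 and 0.01). Tnip3, an inducible relative of Tnip1, was the scarcest member (0.35 CPM per kilobase) and had 10 or more counts in 13 of 16 libraries.

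Among the 6 survival and redox targets, Sod2 fell and Ier3 rose. Sod2 encodes the manganese superoxide dismutase of mitochondria, a classical target of NF-kB that is also induced by interferons, at chr17:13006846-13040063 on the plus strand. Its level was 1012 to 1464 CPM in WT (median 1379) and 796 to 1075 CPM in Ifngr1_KO (median 946). In 6 of 8 Ifngr1_KO libraries it lay below the lowest WT library, and the spread within each group was small. The mean of Sod2 fell from 1321 ± 160 to 944 ± 102 CPM (SD, n = 8), and the log2 fold change was -0.48 (SE 0.09, edgeR adjusted p = 0.0143). The mitochondrially encoded mRNAs, by contrast, had a median log2 fold change of 1.199 with 0 of 13 called. All 13 were above 0 (0.73 to 1.79), and all 13 had an edgeR p under 0.05 before adjustment.

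Ier3, also known as IEX-1, is an immediate early gene that NF-kB induces and that modulates cell death, and it lies at chr17:35821684-35822923 on the plus strand. Its level was 1406 to 2340.4 CPM in WT (median 1745) and 1874 to 3569 CPM in Ifngr1_KO (median 2890.2). In 5 of 8 Ifngr1_KO libraries it lay above the highest WT library. The mean of Ier3 rose from 1835 ± 363 to 2808 ± 617 CPM (SD, n = 8), and the log2 fold change was 0.61 (SE 0.10, edgeR adjusted p = 0.00688), and the difference within a mouse ran from 0.37 to 0.98. Relative to Nfkbia in the same library it was higher by 0.62 ± 0.14 on the log2 scale in all 8 pairs (adjusted p = 0.03125, exact sign-flip test). The immediate early and heat shock genes, 11 in number and also fast to respond, had a median log2 fold change of 0.40 with 0 of 11 called.

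The remaining 4 genes of this group did not pass. Cflar, which encodes the caspase 8 inhibitor c-FLIP, was lower in 7 of 8 mice and below the lowest WT library in 7 of 8, while the Ifngr1_KO library of mouse 7 (243 CPM) was above every WT library. The log2 fold change of Cflar was -0.40 (SE 0.14, edgeR adjusted p = 0.172), and without mouse 7 it passed the test at -0.53 (adjusted p = 0.00496). Birc2 and Birc3, neighbouring genes of the inhibitor of apoptosis proteins c-IAP1 and c-IAP2, had fold changes of -0.16 and -0.40. Without mouse 7 that of Birc3 was -0.18. Tnfaip8, a TNF-induced regulator of cell death, had one of -0.12 (95% interval -0.37 to 0.13).

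Of the 6 surface and other targets, Icam1 fell. It encodes the ligand by which leukocytes and endothelium bind beta 2 integrins, and it lies at chr9:21015985-21028817 on the plus strand. Icam1 was the third most abundant member per kilobase in WT, at 1442 CPM per kilobase. Its level was 2248 to 4821 CPM in WT (median 3659) and 735 to 2969 CPM in Ifngr1_KO (median 2420). Groups overlapped, with 4 of 8 Ifngr1_KO libraries below the lowest WT library, and within each mouse the Ifngr1_KO library was the lower. The mean of Icam1 fell from 3655 ± 834 to 2157 ± 742 CPM (SD, n = 8), and the log2 fold change was -0.83 (SE 0.17, edgeR adjusted p = 0.0257). The Ifngr1_KO library of mouse 7 was the lowest, and without that mouse the fold change was -0.68 (adjusted p = 0.00197). Without the mouse block the call of Icam1 was lost (adjusted p = 0.0972).

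The other 5 genes of the surface and other targets did not pass, although all 6 fold changes were below 0. Cd83, an activation marker of dendritic cells and neutrophils, averaged 41.4 ± 18.0 CPM in WT libraries and 23.9 ± 14.8 CPM without the receptor (SD, n = 8), and the log2 fold change was -0.93 (SE 0.29, edgeR adjusted p = 0.147). Cd69, an early activation antigen, had one of -0.50 (SE 0.16, adjusted p = 0.144). DESeq2 called both lower (adjusted p = 0.0217 and 0.0364). Cd44, the hyaluronan receptor, had a fold change of -0.25, or -0.12 without mouse 7, and Plaur, the urokinase receptor, one of -0.18 with a 95% interval of -0.39 to 0.04. Tnfaip2, a TNF-induced protein, had a fold change of -0.11 that turned to 0.10 without the mouse block. Its Ifngr1_KO library of mouse 7 was at 1399 CPM against a WT range of 322 to 667 CPM.

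**Figure D5:**
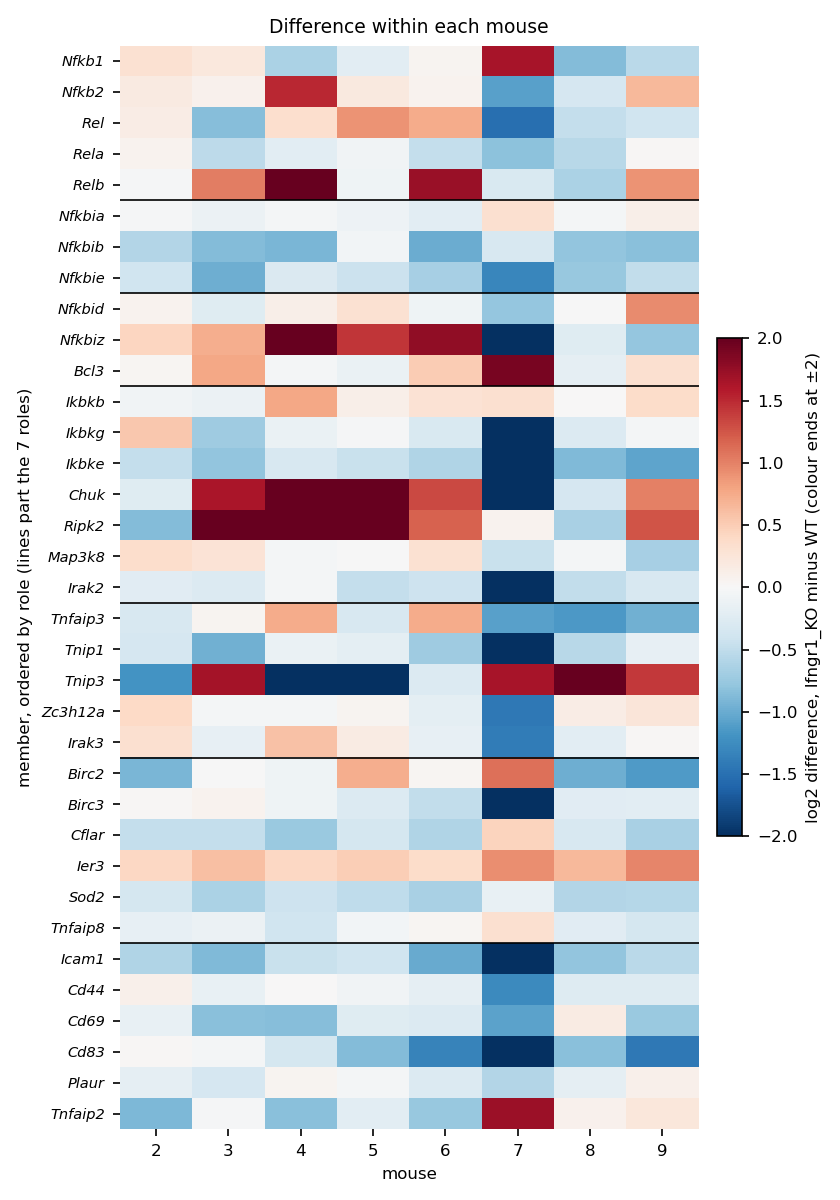
Log2 difference, Ifngr1_KO minus WT, within each mouse (columns) for each of the 35 members (rows, ordered by role); blue is lower and red higher in Ifngr1_KO, and the colour ends at 2 in either direction. Nfkbib, Nfkbie, Ikbke, Irak2, Tnip1, Sod2 and Icam1 are below 0 in all 8 columns, Ier3 is above 0 in all 8, and mouse 7 holds many of the strongest colours.

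Mouse 7 stood apart in the differences of many members. Its log2 difference was -2.73 for Ikbke, -2.55 for Irak2, -1.996 for Tnip1, -2.19 for Birc3, -1.99 for Icam1 and -1.27 for Cd44, each the lowest of the 8 mice. In the other direction it was 1.65 for Nfkb1, 1.91 for Bcl3 and 1.70 for Tnfaip2, each the highest. For Nfkbib and Sod2 the difference in mouse 7 was -0.33 and -0.15, and for Sod2 that was the smallest of the 8. Without mouse 7 the number of members called lower was 7 in place of 4, with Ikbke, Irak2 and Cflar added.

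The calls changed with the mice included. Without mouse 3, mouse 6 or mouse 8, no member was called lower, and the number was 2 without mouse 9 and 3 without mouse 4 or mouse 5. Nfkbib lost its call without mouse 3, 4, 6, 8 or 9, Sod2 without 3, 5, 6, 8 or 9, and Nfkbie and Icam1 without 3, 6 or 8, with adjusted p up to 0.0689, 0.0653, 0.0721 and 0.084. Ier3 was called with any 1 mouse left out. The 5 fold changes kept their sign in each of these fits, which was fixed beforehand, since each had the same direction in 8 of 8 mice. Scaled by library totals, Nfkbie and Icam1 were not called (adjusted p = 0.052 and 0.0564). With the mitochondrial share of the library as a covariate, no member was called, and 94 of all genes were. In that fit the log2 fold changes of Nfkbib (-0.84, adjusted p = 0.0816) and Sod2 (-0.52, 0.135) were at least as large as without the covariate. Those of Nfkbie (-0.44, adjusted p = 0.465), Icam1 (-0.50, 0.587) and Ier3 (0.42, 0.252) were smaller. Its part in the member differences beyond this fit was not tested.

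Other genes of the pathway, taken from 2 lists, were described in the same comparison. Of 37 further signalling genes tested, 1 fell, and the median log2 fold change was -0.14. That gene was Cd40, the receptor of the antibody given to the mice. Its level was 50.0 to 131 CPM in WT (median 94.7) and 9.46 to 34.0 CPM in Ifngr1_KO (median 15.8). The groups did not overlap, and the log2 fold change of Cd40 was -2.32 (SE 0.14, edgeR adjusted p = 6.67e-06).

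Of 24 further target genes tested, 4 fell (16.7%) and 2 rose (8.33%), and the median log2 fold change was 0.05. Of all genes tested, 2.25% fell and 0.477% rose, but at a lower median WT level (7.95 CPM against 653 CPM). Nos2, the inducible nitric oxide synthase, fell from 52.1 ± 30.7 to 9.22 ± 6.03 CPM (SD, n = 8; log2 fold change -2.55, SE 0.40, edgeR adjusted p = 0.00632), and its groups did not overlap. Tlr2, a receptor for bacterial lipoproteins, fell from 859 ± 194 to 527 ± 136 CPM (-0.73, SE 0.16, adjusted p = 0.0349), also without overlap. Tnf, the cytokine that starts the classical pathway, fell from 1532 ± 290 to 1150 ± 236 CPM (-0.42, SE 0.08, adjusted p = 0.0204), and Ptges, a prostaglandin E synthase, from 84.3 ± 20.1 to 58.3 ± 16.2 CPM (-0.55, SE 0.12, adjusted p = 0.0421). The groups of Tnf and Ptges overlapped.

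The 2 targets that rose were Cxcl3, a neutrophil chemoattractant, and Bcl2a1d, an anti-apoptotic relative of Bcl2. Cxcl3 was higher in 8 of 8 mice, from 10.9 ± 4.08 to 23.5 ± 8.09 CPM (SD, n = 8; log2 fold change 1.12, SE 0.21, edgeR adjusted p = 0.0174). Bcl2a1d went from 35.05 ± 13.7 to 55.6 ± 19.3 CPM (0.68, SE 0.15, adjusted p = 0.0435), but its family holds near-identical copies between which reads can be divided, so its value is uncertain. Target genes of NF-kB went in both directions in the same libraries, with Icam1, Sod2, Nos2, Tlr2, Tnf and Ptges lower, Ier3, Cxcl3 and Bcl2a1d higher, and Nfkbia at a fold change near 0.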

How the data were processed

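RNA-seq of liver neutrophils gave 16 libraries, 8 per genotype, with groups and mouse numbers from the sample titles. The deposited table holds estimated counts per Ensembl gene, made by the authors with Salmon 0.14.2 and DESeq2 1.22.1 on build mm10, per the submitters' processing notes. Not given in the sources used here are the annotation, the filters and the use made of DESeq2. Per the labels' protocols, libraries came from 1 ng of RNA with oligo-dT priming and 13 PCR cycles, with no molecular identifiers and no strand information, so counts include PCR copies. The whole numbers were read as rounded estimates. Names came from the GENCODE M21 annotation (GRCm38), and 37 of 54532 identifiers had no name.

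Genotypes were compared with edgeR 4.0.16 in R 4.3.3 (quasi-likelihood F-test, robust, TMM, mouse as a block) over 10063 genes with 10 or more counts in at least 8 columns, which held 99.8% of counts. Benjamini-Hochberg adjustment ran over all of them, with a threshold of 0.05. An SE was derived from F as the absolute log2 fold change over its root, and CPM are TMM-scaled. Ratios add 0.5 to each count. Ratios and library measures were tested by sign flips of the 8 pairs (exact, two-sided), with adjustment over 8 ratios and 12 measures (SciPy 1.17.1). Library totals ran from 12.5 to 21.7 M counts. Intervals give the uncertainty of the mean difference over mice, and single mice can lie outside them.

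The pairing comes from the series design text, which states that samples with 1 number came from 1 mouse. After group means were removed, libraries of 1 mouse correlated across genes by 0.119 on average (0.0172 to 0.257), and libraries of different mice by -0.0156. No columns were identical. Alternatives were no block, DESeq2 size factors, library totals, DESeq2 1.42.0, limma-voom with quality weights per library (limma 3.58.1), which changes both the test and the weight of each library, 3 other filters, a mitochondrial covariate and leaving out each mouse. Leaving out mice 5 and 9 together was added after seeing the data. The members, the lists and the tests were chosen with earlier results of these data known. All members are accounted for, with full values for those called and for the most abundant per length in each role without a call. Genes outside the 35 come from 2 pathway lists, up to 4 called per direction by smallest p, with Ifngr1 and Cd40, and Spi1 was added after its values were seen. No library was left out.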

Additional observations from a re-analysis of the deposited data

Results flagged for a closer look

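Within 8 libraries of 1 genotype, a library was marked when its gap to the nearest of the others took more of the whole range than Dixon's 95% critical value allows. Chance marks about 1 in 20 groups, and 19 of 94 groups were marked here, 15 of them among the 70 groups of members.

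The Ifngr1_KO library of mouse 7 accounted for 12 of those 15 on the log2 CPM scale. It was the lowest for Rel (0.617 of the range), Ikbkg (0.57), Ikbke (0.715), Chuk (0.695), Irak2 (0.798), Tnip1 (0.668), Zc3h12a (0.658), Birc3 (0.76), Cd44 (0.766) and Cd69 (0.687). It was the highest for Nfkb1 (0.563) and Cflar (0.624). The same library was the highest for the summed CPM of the T and NK cell list (0.754), at 25.7 CPM against 9.29 CPM in the next library, and of the dendritic cell list (0.766), at 9.92 CPM against 2.49 CPM. Their part in the member values of that library was not tested.

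In WT libraries, mouse 9 was the lowest for Nfkbid (0.576), mouse 4 for Ikbkb (0.726) and mouse 5 for Chuk (0.573), where its count was 0. Mouse 4 was the highest in WT for the mitochondrial share (0.591), at 1.19% against 0.66% in the next library. Mouse 3 was the highest in WT for the summed CPM of immediate early and heat shock genes (0.584), at 23091 CPM against 16523 CPM.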

How the results depend on the processing

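Nfkbib, Nfkbie, Sod2, Icam1 and Ier3 kept their direction in all 18 alternative fits. In the fits that leave out mice this was fixed beforehand, since each had the same direction in 8 of 8 mice. The cause of each change below was not tested. The number of members called lower, 4 in the main comparison, was 2 without the mouse block and 2 with library totals, 8 with DESeq2, 7 with limma-voom and quality weights per library, 0 with the mitochondrial covariate and 0 without mice 5 and 9, and 0 to 7 when each mouse was left out. The number called higher, 1, was 0 with the mitochondrial covariate and 0 without mice 5 and 9. The replicate block by mouse decided the calls of Nfkbie and Icam1 and of no other member. All genes called, 274, were 1069 with DESeq2, 595 with weighted limma-voom, 94 with the mitochondrial covariate, 129 without mice 5 and 9, and 160.0 to 412 when each mouse was left out. Over all genes, library totals moved the median fold change (log2) from 0.05 to 0.16 and the calls from 226 lower and 48 higher to 163 and 98. The split was 577 and 492 with DESeq2, 418 and 177 with weighted limma-voom, and 244 and 126 with a mean CPM of at least 10.

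Signs turned for members whose fold change was not called. Without the mouse block these were Nfkb1 0.0228 and Tnfaip2 0.1014, and with library totals Nfkb1 0.0958, Nfkbia 0.0954, Map3k8 0.0782, Zc3h12a 0.0146, Irak3 0.0152 and Tnfaip2 0.0022. With weighted limma-voom they were Map3k8 0.0057 and Zc3h12a 0.0511, with no filter Tnip3 -0.0097, and with a mean CPM of at least 10 Nfkb1 0.0577, Nfkbia 0.0687 and Map3k8 0.0522. With the mitochondrial covariate they were Rel 0.2359, Bcl3 -0.0113, Ikbkg 0.2156, Map3k8 0.2185, Irak2 0.037, Tnfaip3 0.2576, Tnip3 -1.5751, Zc3h12a 0.2606, Irak3 0.3977, Birc3 0.1465 and Cd44 0.106, and without mice 5 and 9 Nfkb1 0.1142, Nfkbid -0.1464 and Map3k8 0.0742. When each mouse was left out, the ranges that crossed 0 were Nfkb1 -0.2462 to 0.1086, Nfkb2 -0.0306 to 0.3181, Rel -0.2782 to 0.0486, Nfkbia -0.0721 to 0.0148, Nfkbid -0.0925 to 0.1447, Map3k8 -0.1069 to 0.0526, Tnip3 -0.4469 to 0.5567, Zc3h12a -0.1906 to 0.0713 and Irak3 -0.195 to 0.0703.

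With each mouse left out, the within-library ratios of Nfkbie to Nfkbia ran from -0.7076 to -0.5111, of Nfkbib to Nfkbia from -0.7575 to -0.6158 and of Ier3 to Nfkbia from 0.5838 to 0.6441. Each had an adjusted p above 0.05 in 7 of the 8 fits (exact sign-flip test). The smallest p that 7 pairs allow in this test is above that of 8. Nfkbie to Nfkbib ran from -0.0818 to 0.1457, Nfkb1 to Nfkb2 from -0.5736 to 0.1247 and Ikbkb to Chuk from -1.9217 to 0.085. Differences of summed marker CPM crossed 0 for T and NK cells (-2.1704 to 1.9045), hepatocytes (-2.1987 to 22.7869), dendritic cells (-1.3405 to 0.0633) and neutrophils (-4017.75 to 1744.16). Depth limits Chuk, Ripk2 and Tnip3, which had under 10 counts in some libraries.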
